A study of Rattus norvegicus with 32 samples.

Results

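ABC, SLCO and SLC22 transporters of rat liver were followed after ozone inhalation. The members are all genes whose symbol in the array's annotation begins as an ABC (subfamilies A to G), SLCO or SLC22 gene and that had a probe set of their own, with Abcb11 and Abcc2 left out. The rule gave 65 of the 13437 genes with such a probe set, namely 36 ABC, 13 SLCO and 16 SLC22 genes. Of these, 55 were bright enough to be tested, among 11625 genes tested in all. The other 10 (Abcd2, Abcg8, Slco1a3, Slco1a6, Slco1c1, Slco6b1, Slc22a2, Slc22a6, Slc22a12 and Slc22a21) had only probe sets below the 25th percentile of mean signal and have no test. Abcb1b was not analysed here on its own.

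Male Wistar Kyoto rats, 10 weeks old and weighing 250 to 300 g, breathed filtered air or 1 ppm ozone, an oxidant gas of polluted air, for 6 h per day. Livers were taken as the exposure ended on day 1 (6 arrays for air and 6 for ozone), as it ended on day 2 (5 and 5), or 18 h after the end of day 2 (5 and 5), so that each harvest time had air controls of its own. The 32 arrays measured total RNA of whole liver, and values are probe-set intensities in arbitrary units on a linear scale. Array number limits the precision, and nothing in the labels ties each array to a rat of its own, so p-values measure the spread between arrays, which may be partly technical.

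Hepatocytes take organic anions, bile acids, bilirubin, hormones and many drugs from portal blood through SLCO (OATP) and SLC22 (OAT, OCT, OCTN) carriers on the sinusoidal membrane. ABC proteins use ATP to move substrates. Some export drugs, phospholipid and sterol into bile across the canalicular membrane, and some ABCC (MRP) proteins return conjugates to blood. Some ABCA and ABCG proteins load lipid onto lipoproteins, and some ABCD proteins feed fatty acids into peroxisomes. ABCE and ABCF proteins work in translation and transport nothing. The liver's inflammatory and glucocorticoid responses are known to change the transcripts of many of these genes.

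At the end of day 1, 22 of the 55 tested members (40%) differed between ozone and air at a Benjamini-Hochberg adjusted p below 0.05 in limma's moderated test over all 11625 genes, against 29.5% of all genes. A total of 17 members fell (16.4% of all genes did) and 5 rose (13.1% of all genes did). In 15 members the ozone and air arrays did not overlap (15.9% of all genes), 12 of them lower after ozone (8.76%) and 3 higher (7.19%). The median log2 difference of the 55 members was -0.04 and that of all genes was 0.00. Among genes past the threshold the median size was 0.28 in members and 0.22 in all genes. Every log2 difference is ozone minus air on the log2(intensity + 16) scale with limma's standard error, and it understates the change of dim genes.

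**Figure D1:**
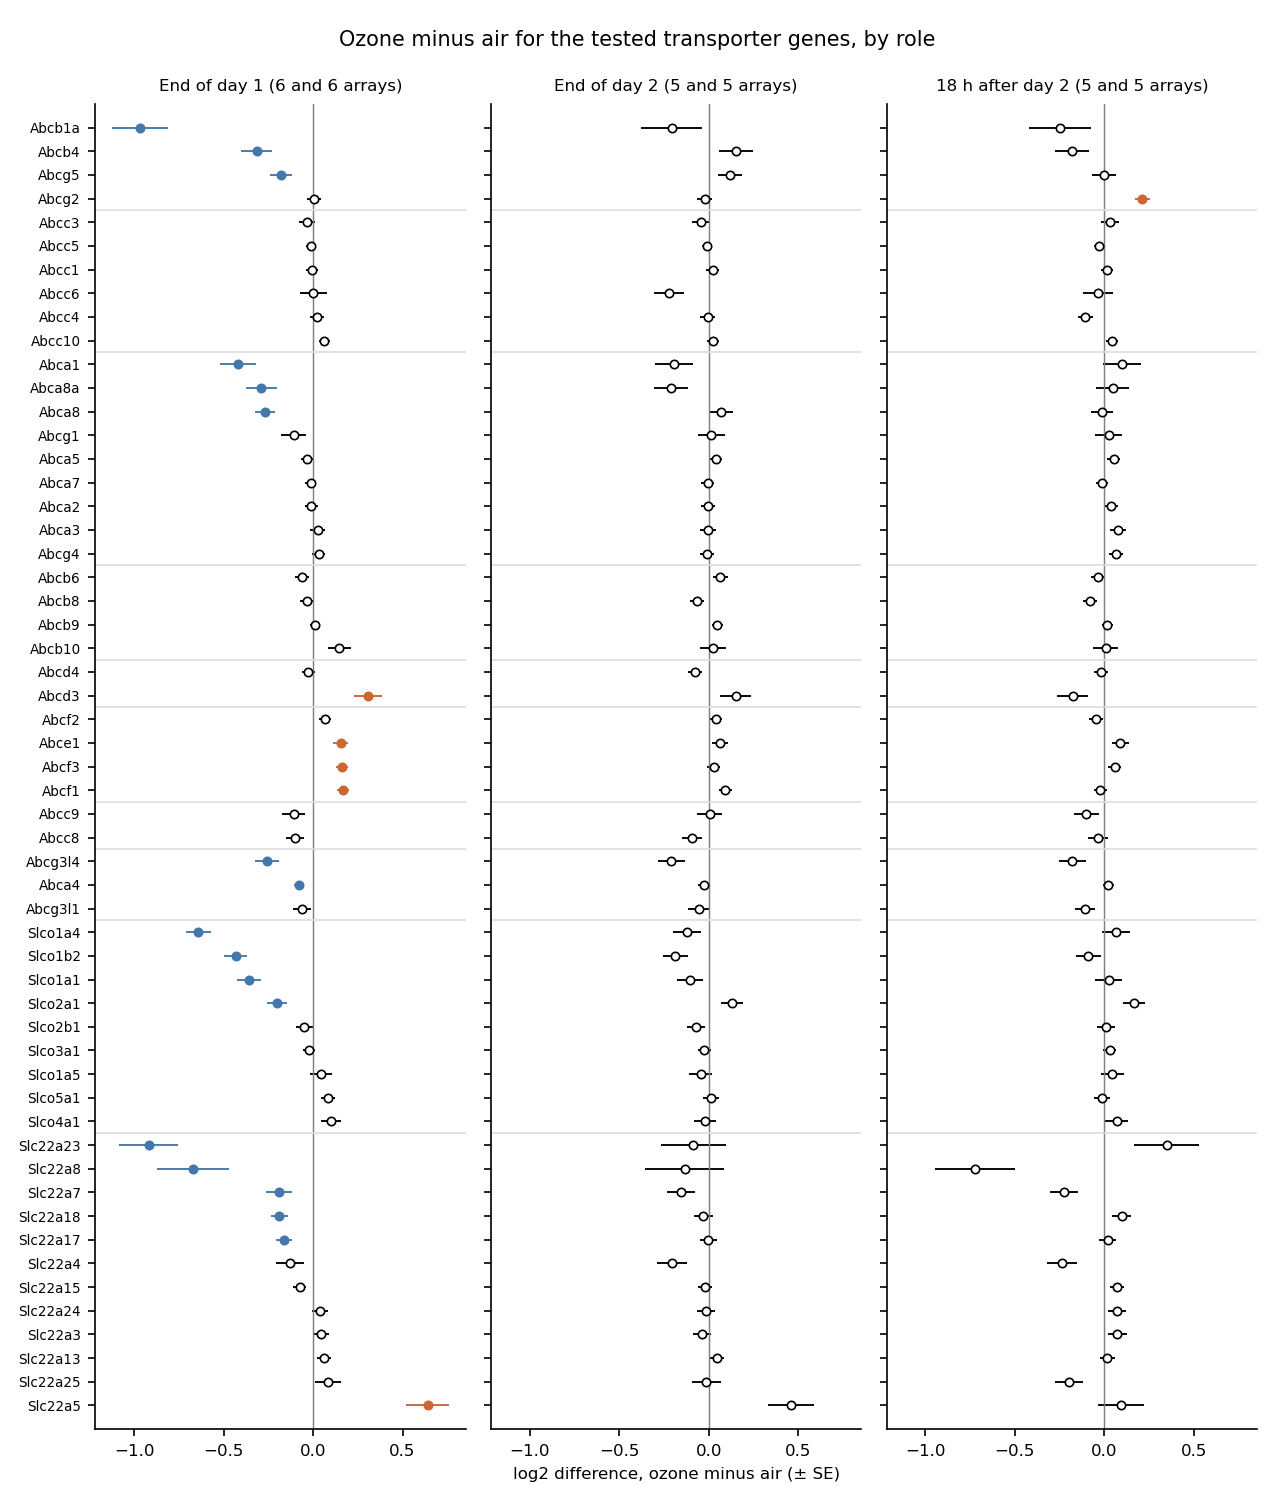
Log2 difference, ozone minus air, with its standard error (horizontal axis) for each of the 55 tested members, grouped by role from canalicular efflux at the top to SLC22 at the bottom, at the 3 harvest times; filled blue points fell and filled orange points rose at an adjusted p below 0.05, and open points did not pass. On day 1, 17 points are filled blue and 5 filled orange; on day 2 no point is filled, and at 18 h only that of Abcg2 is.

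A few facts about the arrays touch the results below. Hepatocyte transcripts such as albumin summed to between 57378 and 64447 units on every array, and 0 of the 7 tested hepatocyte markers passed the threshold on day 1. By their correlation with group means, 8 arrays lay nearer to another group than to their own: day 1 air 5, day 2 air 1, 2 and 5, day 2 ozone 5, and 18 h air 1, 3 and 5. Day 2 air 5 correlated with its own group at -0.50 and with day 2 ozone at 0.56, day 2 ozone 5 at -0.23 with its own and 0.64 with ozone at 18 h, day 2 air 1 at -0.05 with its own and 0.64 with day 1 air, 18 h air 1 at 0.25 with its own and 0.65 with ozone at 18 h, and 18 h air 5 at 0.12 with its own and 0.54 with day 1 air. The ratio of 3′ to 5′ signal of beta-actin was 3.50 on 18 h ozone 5 and 2.16 to 2.89 on the other arrays. All arrays were kept under their labels. Later results are also given without 3 of the 8 (day 2 air 5, day 2 ozone 5 and 18 h air 5), a choice made after values were seen, and without all 8, which leaves 2 air arrays on day 2 and 2 at 18 h. On day 1, 21 members passed without the 8 (31.2% of all genes). Day 1 air 2 and day 1 ozone 3 had low signal on nonspecific probes (54.3 and 66.1 units, against 85.2 to 92.0 on the other arrays); without both, 19 members passed on day 1 (25.1% of all genes).

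Of the 9 tested SLCO genes, 4 fell on day 1 and none rose (16.4% of all genes fell and 13.1% rose). These were Slco1a4, Slco1b2 and Slco1a1, the main hepatocyte OATPs for bile acids, steroid conjugates and drugs, and Slco2a1, a prostaglandin carrier. In RefSeq's gene order (assembly GRCr8), Slco1b2, Slco1a4 and Slco1a1 stand beside each other on chromosome 4 in a run of 7 SLCO1 genes, of which 4 were tested and 3 fell; the fourth, Slco1a5, had a difference of 0.04 ± 0.06. Because these 3 neighbours fell together, the 300 bases around each start site are shown here, 250 before and 50 after it, 5′ to 3′ on the gene's strand, from RefSeq on GRCr8. Abcb1a, the member with the largest fall, is shown beside them. Capitals mark matches on either strand to 5 short motifs: the antioxidant response element core TGACNNNGC, the glucocorticoid receptor half-site TGTTCT, the nuclear receptor half-site AGGTCA, the E-box CACGTG and the HNF1 half-site GTTAAT.
Slco1b2 (chr4:176282334-176282633, plus strand): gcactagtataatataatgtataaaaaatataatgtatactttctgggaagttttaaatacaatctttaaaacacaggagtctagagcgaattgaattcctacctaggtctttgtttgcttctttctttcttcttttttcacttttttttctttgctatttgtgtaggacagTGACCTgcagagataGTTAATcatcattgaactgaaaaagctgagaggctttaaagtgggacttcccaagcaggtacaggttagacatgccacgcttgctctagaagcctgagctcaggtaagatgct
Slco1a4 (chr4:176495797-176496096, minus strand): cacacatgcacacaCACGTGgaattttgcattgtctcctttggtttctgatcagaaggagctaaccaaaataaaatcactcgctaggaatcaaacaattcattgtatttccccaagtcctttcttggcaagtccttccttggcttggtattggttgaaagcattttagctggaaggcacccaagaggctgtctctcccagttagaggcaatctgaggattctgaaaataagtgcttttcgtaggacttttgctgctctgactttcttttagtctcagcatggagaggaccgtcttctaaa
Slco1a1 (chr4:176681943-176682242, minus strand): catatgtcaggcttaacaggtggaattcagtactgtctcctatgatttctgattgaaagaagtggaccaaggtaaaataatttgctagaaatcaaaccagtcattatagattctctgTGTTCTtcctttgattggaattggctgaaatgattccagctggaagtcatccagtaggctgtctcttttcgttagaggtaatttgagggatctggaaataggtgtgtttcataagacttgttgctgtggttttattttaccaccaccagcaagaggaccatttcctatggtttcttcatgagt
Abcb1a (chr4:26397599-26397898, minus strand): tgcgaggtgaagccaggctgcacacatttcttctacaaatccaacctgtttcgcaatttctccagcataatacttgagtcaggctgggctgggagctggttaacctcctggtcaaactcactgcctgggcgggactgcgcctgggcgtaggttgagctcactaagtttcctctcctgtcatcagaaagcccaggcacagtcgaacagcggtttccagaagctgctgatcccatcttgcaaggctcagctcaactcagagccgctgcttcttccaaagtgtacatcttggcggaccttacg
In these windows Slco1b2 held a nuclear receptor half-site (TGACCT as read on the gene's strand, 78 bases before the start) and an HNF1 half-site (63 bases before). Slco1a4 held an E-box 236 bases before the start, and Slco1a1 a glucocorticoid receptor half-site 133 bases before it. The 3 promoters thus shared none of the 5 motifs, and the Abcb1a window held no match. A match is a description of letters and not a bound site.

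RefSeq gave promoters for 56 of the 65 members, 16 of them among the 17 that fell on day 1 and 4 among the 5 that rose. The glucocorticoid receptor half-site stood in 4 of these 16 and in 20.7% of all 33469 promoters of the same length, and the E-box in 2 of 16 and 6.42% of all. The antioxidant core, the nuclear receptor half-site and the HNF1 half-site each stood in 2 of 16 (12.1%, 16.2% and 7.45% of all promoters). Among the 4 that rose, 1 held the glucocorticoid receptor half-site, 1 the HNF1 half-site and none the other 3 motifs.

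Slco1a4 encodes the digoxin-carrying OATP1A4. On day 1 its air arrays read 3413 to 4245 units (median 3654) and its ozone arrays 2090.1 to 2645 units (median 2523). Every ozone array lay below every air array. The log2 difference was -0.64 ± 0.07, a 1.56-fold fall (limma, adjusted p = 1.3e-07), and its second probe set gave -0.86 ± 0.10. On day 2 the air arrays read 3694, 2834, 3566, 3784 and 3182 and the ozone arrays 3202, 3299, 3189, 2791 and 3129. These overlapped (difference -0.12 ± 0.08, adjusted p = 0.58), as did the arrays at 18 h, where air read 3298 to 4187 and ozone 3551 to 4122 (difference 0.06 ± 0.08, adjusted p = 0.85).

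Slco1b2, the rat's liver-restricted OATP for bilirubin and bile acids, read 3677 to 3962 units (median 3792) after air and 2471 to 3102 units (median 2872) after ozone on day 1. Again no array overlapped. The log2 difference was -0.43 ± 0.06 (limma, adjusted p = 5e-06), and the second probe set gave -0.67 ± 0.10. On day 2 air read 3483, 3483, 3807, 3799.5 and 3189 and ozone 3023, 3129.6, 3150.3, 2751 and 3559. There the 4 other ozone arrays lay below all air arrays and ozone 5 lay among them; the difference was -0.19 ± 0.07 (adjusted p = 0.17). At 18 h the difference was -0.09 ± 0.07 (adjusted p = 0.68), while the second probe set gave -0.39 ± 0.11 (adjusted p = 0.068 over all probe sets) and the mean of both -0.24 (adjusted p = 0.17). The second probe set gave -0.32 ± 0.11 on day 2 (adjusted p = 0.15). Without the 8 arrays nearer another group, the day 2 difference passed (-0.34 ± 0.08, adjusted p = 0.011).

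Slco1a1 encodes a hepatocyte OATP of steroid conjugates. Its day 1 arrays read 1376 to 1685 units (median 1536) after air and 1013 to 1333 units (median 1199) after ozone. The groups did not overlap, and the log2 difference was -0.36 ± 0.07 (limma, adjusted p = 0.00013). It was -0.10 ± 0.07 on day 2 (adjusted p = 0.65) and 0.02 ± 0.07 at 18 h (adjusted p = 0.95). Slco2a1 fell by less: air arrays read 1949.6 to 2097 units (median 1987) and ozone arrays 1505 to 1903 units (median 1787), without overlap, for a difference of -0.20 ± 0.06 (adjusted p = 0.0069). Of its 2 probe sets only the brighter passed; the other gave -0.16 ± 0.07. Slco2b1, which carries steroid sulphates, differed by -0.05 ± 0.05 on day 1 (adjusted p = 0.46). The other 4 tested SLCO genes (Slco1a5, Slco3a1, Slco4a1 and Slco5a1) lay between -0.02 and 0.10 and did not pass.

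**Figure D2:**
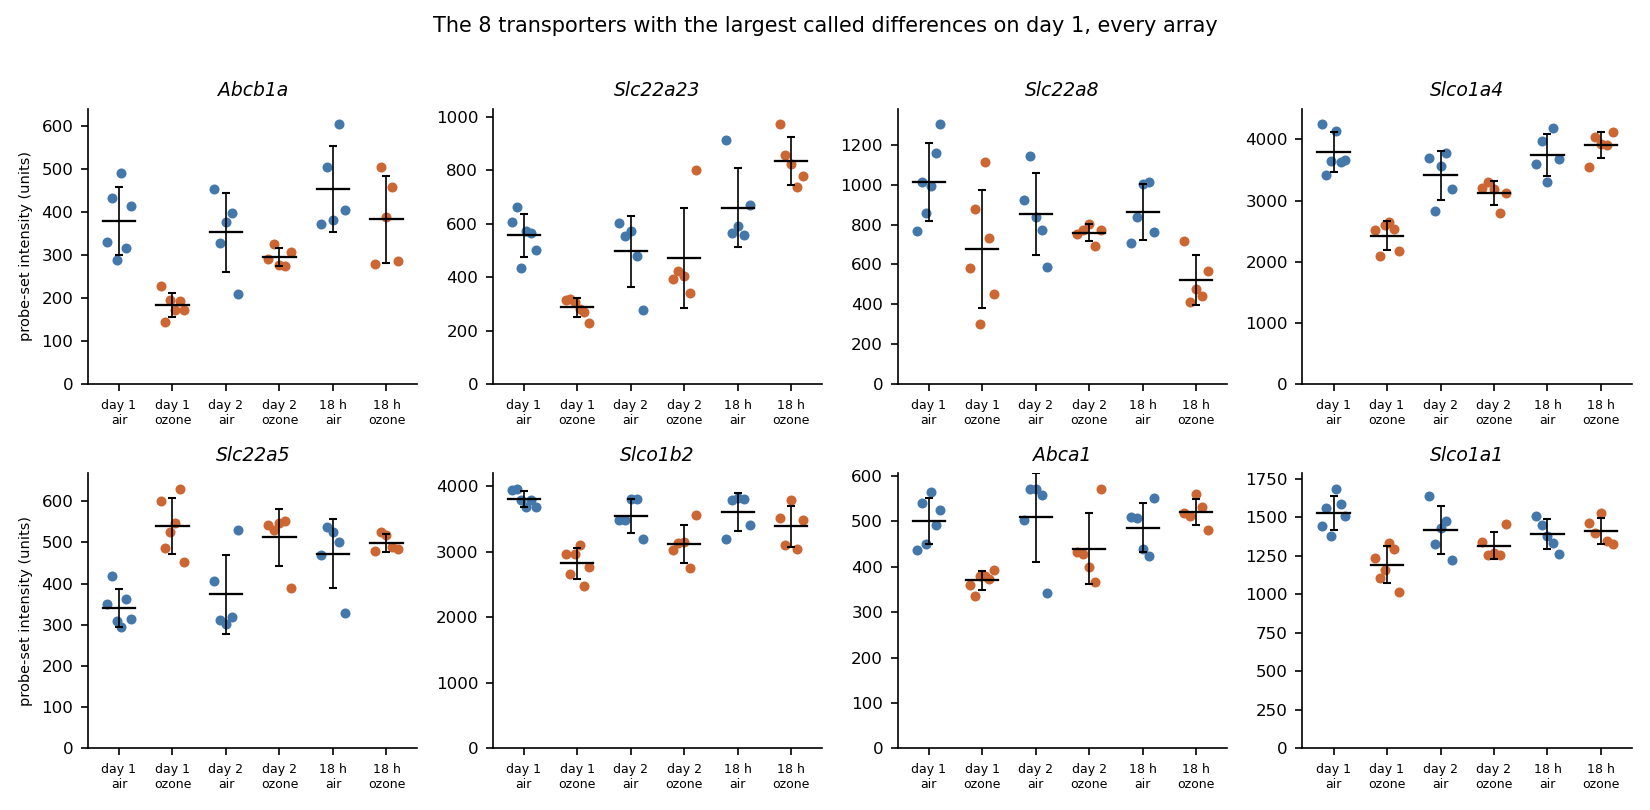
Probe-set intensity in arbitrary units (vertical axis, linear, from 0) on every array of the 6 groups (horizontal axis) for the 8 members with the largest called differences on day 1; blue points are air and orange points ozone arrays, the black line is the group mean and the bar its SD. In 7 of the 8 panels the day 1 ozone arrays lie clear of the air arrays, and in the panel of Slc22a8 they overlap.

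Among the 12 tested SLC22 genes, 5 fell and 1 rose on day 1 (16.4% of all genes fell and 13.1% rose). The one that rose was Slc22a5, the OCTN2 carrier that brings carnitine into cells for fatty acid oxidation. On day 1 its air arrays read 294 to 417 units (median 332) and its ozone arrays 452 to 630.4 units (median 536). Every ozone array lay above every air array, and the log2 difference was 0.64 ± 0.12, a 1.56-fold rise (limma, adjusted p = 0.00011). It was the largest rise among the 55 members. On day 2 air read 405, 312, 302, 319.6 and 529 and ozone 543, 530.5, 548, 552 and 390.3. Air 5 stood with the ozone arrays and ozone 5 with the air arrays, while the 4 other arrays of each group did not overlap. The day 2 difference was 0.46 ± 0.13 and did not pass (adjusted p = 0.073). Without day 2 air 5, day 2 ozone 5 and 18 h air 5 it was 0.68 ± 0.09 (adjusted p = 9.4e-06), and without all 8 arrays nearer another group 0.77 ± 0.11 (adjusted p = 7.1e-05). At 18 h air read 468, 538, 525, 502 and 329.8 and ozone 478, 525, 517, 489.7 and 483, which overlapped, and the difference was 0.09 ± 0.13 (adjusted p = 0.87). Slc22a4, its relative and next but one in gene order, differed by -0.13 ± 0.08 on day 1 and did not pass (adjusted p = 0.24).

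Slc22a23, an orphan member of the family with no settled substrate, read 433 to 664 units (median 569) after air and 229 to 319 units (median 292) after ozone on day 1. The groups did not overlap, and the log2 difference was -0.92 ± 0.17, a 1.89-fold fall (limma, adjusted p = 7.9e-05). Its second probe set also passed but gave -0.27 ± 0.06, so the size depends on the probe set. On day 2 air read 601, 554, 571, 477 and 275 and ozone 393, 424, 404, 341 and 802. Air 5 was the lowest and ozone 5 the highest of these 10 arrays, and the 4 other arrays of each group did not overlap. The day 2 difference was -0.09 ± 0.18 with all arrays (adjusted p = 0.97) and -0.48 ± 0.13 without those 3 arrays (adjusted p = 0.011). Without all 8 it was -0.41 ± 0.14 and did not pass (adjusted p = 0.066). At 18 h air read 913, 564, 593, 557 and 671 and ozone 971, 856, 824, 738 and 776. All ozone arrays lay above 4 of the air arrays, and the difference, now upward at 0.35 ± 0.18, did not pass (adjusted p = 0.45).

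Slc22a8, the organic anion carrier OAT3, varied most from array to array. On day 1 air read 766 to 1303 units (median 1003) and ozone 303 to 1116 units (median 656). The ozone arrays spread wider than the air arrays and overlapped them. The log2 difference was -0.67 ± 0.20 (limma, adjusted p = 0.011). It no longer passed without the 2 arrays of low nonspecific signal (-0.47 ± 0.19, adjusted p = 0.071), 1 of which held the lowest value. At 18 h air read 707, 836, 1002, 1015 and 761 and ozone 717, 410.0, 477, 440.0 and 568. Of these ozone arrays 4 lay below all air arrays, and the difference of -0.72 ± 0.22 did not pass (adjusted p = 0.1).

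Slc22a7 encodes OAT2, a sinusoidal organic anion carrier. Its day 1 difference of -0.19 ± 0.07 (limma, adjusted p = 0.041) was marginal, with air arrays at 956 to 1181 units (median 1141) and ozone arrays at 888 to 1013 units (median 978), which overlapped. The call was lost without any 1 of 8 single arrays and after quantile normalization (adjusted p = 0.12). The differences at the later times were of like size, -0.15 ± 0.08 and -0.23 ± 0.08, and did not pass (adjusted p = 0.4 and 0.15). They depended on the arrays kept. The day 2 value was -0.25 ± 0.08 without day 2 air 5, day 2 ozone 5 and 18 h air 5 (adjusted p = 0.029), and -0.15 ± 0.09 without all 8 arrays nearer another group (adjusted p = 0.38). The 18 h value passed without 18 h air 1 (-0.28, adjusted p = 0.038) and was -0.29 ± 0.08 without all 8 (adjusted p = 0.069). Slc22a18, an orphan carrier from an imprinted region, fell by 0.19 on the log2 scale (SE 0.05, adjusted p = 0.003), and Slc22a17, a receptor for lipocalin 2, by 0.16 (SE 0.04, adjusted p = 0.0054), both without overlap of arrays. The other 6 tested SLC22 genes did not pass.

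Of the 4 tested transporters that export into bile, 3 fell on day 1 (16.4% of all genes did). Abcb1a, 1 of the rat's P-glycoproteins, which pump many lipophilic drugs out of cells, showed the largest fall of all members. Its day 1 air arrays read 288 to 492 units (median 373) and its ozone arrays 145 to 229 units (median 184). No ozone array reached the lowest air array. The log2 difference was -0.97 ± 0.16, a 1.95-fold fall (limma, adjusted p = 2.2e-05), and the second probe set gave -0.64 ± 0.12. A probe set that the annotation gives to both Abcb1a and its near copy Abcb1b had a median of 219 units after air and 152 after ozone on day 1, also without overlap, and the signals of the copies may be mixed. On day 2 air read 455, 328, 377, 399 and 209.8 and ozone 292, 326, 277, 275 and 308. Air 5 lay below every ozone array and the 4 other air arrays lay above every one. The difference was -0.21 ± 0.17 (adjusted p = 0.74), and -0.39 ± 0.17 without the 3 arrays (adjusted p = 0.16) and -0.39 ± 0.20 without the 8 (adjusted p = 0.3). At 18 h the groups overlapped, with air at 372 to 605 and ozone at 279 to 506 (difference -0.25 ± 0.17, adjusted p = 0.63).

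Abcb4 is the canalicular flippase that supplies phosphatidylcholine to bile. On day 1 air read 629.6 to 873 units (median 742) and ozone 469.7 to 701 units (median 604), with overlap, for a difference of -0.32 ± 0.09 (limma, adjusted p = 0.0054). Day 2 air arrays read 753, 599, 591, 599 and 645 and ozone arrays 729, 712, 763, 663 and 675. Here 4 air arrays lay below every ozone array and air 1 near the top, and the difference of 0.15 ± 0.09 did not pass (adjusted p = 0.56). Abcg5, which pairs with Abcg8 to secrete sterol, read 151 to 173 units (median 157) after air and 128 to 146 units (median 142) after ozone on day 1, without overlap, and differed by -0.18 ± 0.06 (adjusted p = 0.026). This call was lost without any 1 of 4 single arrays. Abcg8 itself was among the dim genes.

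Abcg2, the breast cancer resistance protein that exports sulphate conjugates and urate, was the only member past the threshold at 18 h after day 2 (1 of 55; 1.17% of all genes), and also the only one whose arrays did not overlap then (2.76% of all genes). At 18 h air read 168, 159, 149, 151 and 174 and ozone 192, 186, 183, 200.2 and 179.7. The lowest ozone array lay above the highest air array. The difference was 0.21 ± 0.04, a 1.16-fold rise (limma, adjusted p = 0.015). It lost the threshold without 18 h air 3 (adjusted p = 0.063), 18 h air 4 (0.063) or 18 h ozone 4 (0.055), each time with a difference of 0.19. On day 1 air read 156 to 169.7 units (median 164) and ozone 154 to 169.5 units (median 165), nearly the same range, and the differences on day 1 and day 2 were 0.00 ± 0.04 and -0.02 ± 0.04 (adjusted p = 0.95 and 0.96). The rise at 18 h was not shown to differ from the day 2 value, since the difference between these effects was 0.24 ± 0.06 (adjusted p = 0.27). The count at 18 h was 3 without 18 h air 1 (3.54% of all genes). Without 18 h air 1, 18 h air 5, day 2 air 5 and day 2 ozone 5 it was 5 (4.95% of all genes). Of these, Abcg2 and Slc22a23 (0.53) were higher after ozone, and Abcd3 (-0.30), Slc22a7 (-0.30) and Slc22a8 (-0.87) lower. Without all 8 arrays nearer another group it was 3 (2.57% of all genes): Abcg2 (0.26 ± 0.04), Slc22a23 (0.55) and Abcd3 (-0.30). In that fit the difference between the 18 h and day 2 effects of Abcg2 was 0.36 ± 0.06 (adjusted p = 0.0013). The fit kept only 2 air arrays on day 2 and 2 at 18 h. Its arrays were chosen after values were seen, which tends to widen gaps between groups.

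None of the 6 tested blood-side exporters and other MRP genes (Abcc1, Abcc3, Abcc4, Abcc5, Abcc6 and Abcc10) passed on day 1, where their differences lay between -0.04 and 0.06. Abcc3 and Abcc4 send glucuronides and bile acids back to blood and are known to be induced in cholestasis. Abcc3 read 167 to 198 units (median 183) after air and 167 to 202 units (median 171) after ozone on day 1, and Abcc4 read 115 to 139.9 units (median 124) and 115 to 142 units (median 126). In both the groups overlapped almost fully, with differences of -0.04 ± 0.05 and 0.02 ± 0.04. Abcc6, whose loss causes ectopic mineralisation, differed by 0.00 ± 0.08 on day 1. On day 2 it read 506, 602, 591, 601 and 552 after air and 478, 446, 531, 416 and 575 after ozone, for -0.22 ± 0.08 (limma, adjusted p = 0.18).

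Lipid transporters fell in part: 3 of 9 tested were lower on day 1 and none higher (16.4% of all genes fell and 13.1% rose). Abca1, which loads cholesterol onto apolipoprotein A-I to form HDL, read 437 to 565 units (median 509) after air and 335 to 393 units (median 376) after ozone. The groups did not overlap. The log2 difference was -0.42 ± 0.10 (limma, adjusted p = 0.0014), and its 4 probe sets gave -0.42 to -0.48. On day 2 air read 503, 570.4, 572, 557 and 342 and ozone 432, 428, 401, 367 and 571. Air 5 lay below every ozone array and ozone 5 level with the highest air arrays, while the 4 other arrays of each group did not overlap. The difference was -0.19 ± 0.11 with all arrays (adjusted p = 0.47) and -0.42 ± 0.07 without the 3 (adjusted p = 0.00017), and -0.46 ± 0.09 without the 8 (adjusted p = 0.0022). Abca8 and Abca8a, adjacent genes on chromosome 10 linked to sterol and sphingolipid handling, fell by 0.27 (SE 0.06) and 0.29 (SE 0.09) on the log2 scale on day 1 (adjusted p = 0.00062 and 0.0095). Abcg1, Abcg4, Abca2, Abca3, Abca5 and Abca7 did not pass. Elsewhere among ABC genes, Abcg3l4, a rodent ABCG gene of unsettled function, fell on day 1 (-0.26 ± 0.07, adjusted p = 0.004), and so did Abca4, best known from the retina, by a small step (-0.08 ± 0.03, adjusted p = 0.035) that was lost without any 1 of 5 single arrays.

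The 4 ABC genes that rose on day 1 are not plasma membrane transporters. Abcd3, the peroxisomal importer of branched and long-chain acyl-CoA, read 2048 to 2366 units (median 2264) after air and 2549.8 to 3165 units (median 2767) after ozone, without overlap, and differed by 0.31 ± 0.08 (limma, adjusted p = 0.0032). Of the 4 ABCE and ABCF genes, 3 rose (13.1% of all genes did). Abce1, which recycles ribosomes, differed by 0.15 ± 0.04 (adjusted p = 0.0059); Abcf1 and Abcf3, translation factors, by 0.17 ± 0.03 and 0.16 ± 0.03 (adjusted p = 0.00035 and 0.00036). For Abcf3 the arrays did not overlap, but its second probe set gave 0.00 ± 0.03 and did not pass. None of the 4 mitochondrial and lysosomal ABCB genes (Abcb6, Abcb8, Abcb9 and Abcb10) and neither sulphonylurea receptor (Abcc8, Abcc9) passed.

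**Figure D3:**
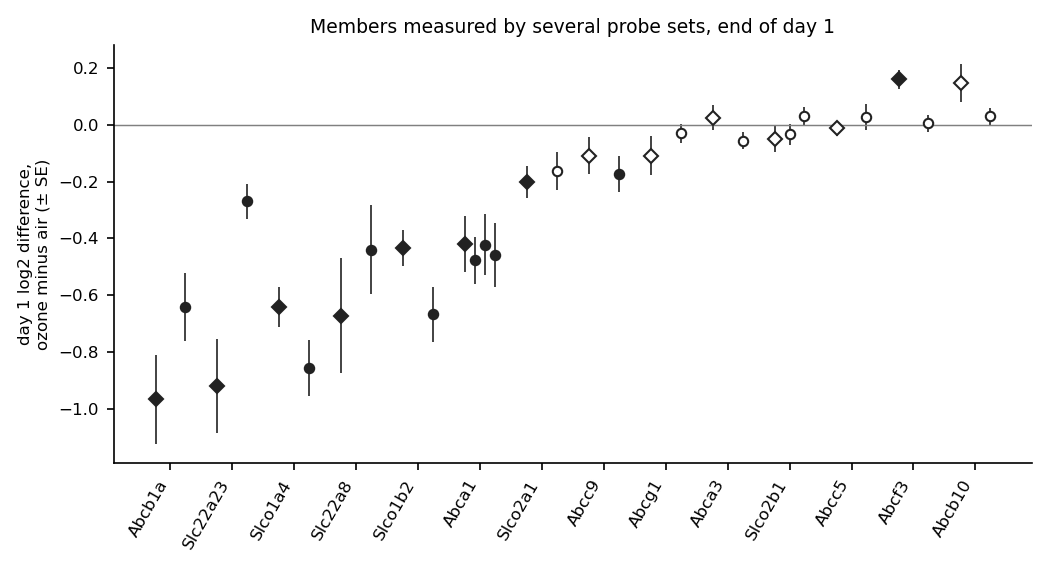
Day 1 log2 difference, ozone minus air, with its standard error (vertical axis) for the 14 members with several probe sets past the filter (horizontal axis); diamonds are the brightest probe set, which stands for the gene, circles the others, and filled symbols passed an adjusted p of 0.05 over all 15581 probe sets. All probe sets passed in 6 members and some in 3, and no member had probe sets past the threshold in opposite directions.

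Counted by probe set, 31 of 72 member probe sets passed on day 1, against 4376 of all 15581. All probe sets passed for Abcb1a, Slc22a23, Slco1a4, Slc22a8, Slco1b2 and Abca1, whose brightest probe sets all lie among the 8 largest differences. In Slco2a1 and Abcf3 the brighter passed and the other did not, and in Abcc9 only a dimmer one did.

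Members differed widely in how much they varied within groups. The SD of log2 values, pooled over the 6 groups, was 0.38 for Slc22a8, 0.31 for Slc22a23, 0.29 for Abcb1a and 0.22 for Slc22a5, and it had a median of 0.08 over the 55 tested members. These 4 were the only members above 0.2. The span between the lowest and the highest group mean was 1.49 for Slc22a23, 1.21 for Abcb1a, 0.94 for Slc22a8, 0.69 for Slco1a4 and 0.64 for Slc22a5, with a median of 0.16.

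At the end of day 2, 0 of the 55 members passed (0.705% of all genes did), with 9 at an unadjusted limma p below 0.05 (13% of all genes), and no member's arrays were free of overlap (1.49% of all genes). The count depended on the pair of arrays numbered 5: it was 6 without day 2 air 5 (8.4% of all genes), 4 without day 2 ozone 5 (4.35%), 10 without these and 18 h air 5 (13.2%), and 6 without all 8 arrays that lay nearer another group (8.62%). The 10 were Slc22a5, Abcd3 and Abcf1, which were higher after ozone, and Slc22a23, Abca1, Abca8a, Abcg3l4, Abcc6, Slco1b2 and Slc22a7, which were lower. The 6 without all 8 arrays were Slc22a5 and Abcd3, higher, and Abca1, Abca8a, Abcc6 and Slco1b2, lower. These arrays were chosen after their values were seen, because they lay away from their own groups, and leaving such arrays out tends to widen the gap between groups.

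Day 1 and day 2 share no arrays. Of the 17 members that fell on day 1, 13 (76.5%) were also below 0 on day 2, against 76% of all genes that fell on day 1, and at 18 h 8 of 17 (47.1%, against 34.6%) were. All 5 members that rose were above 0 on day 2 (85.1% of all genes that rose were) and 3 were at 18 h (47.8%). The median difference of the 17 went from -0.29 on day 1 to -0.10 on day 2 and 0.02 at 18 h.

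**Figure D4:**
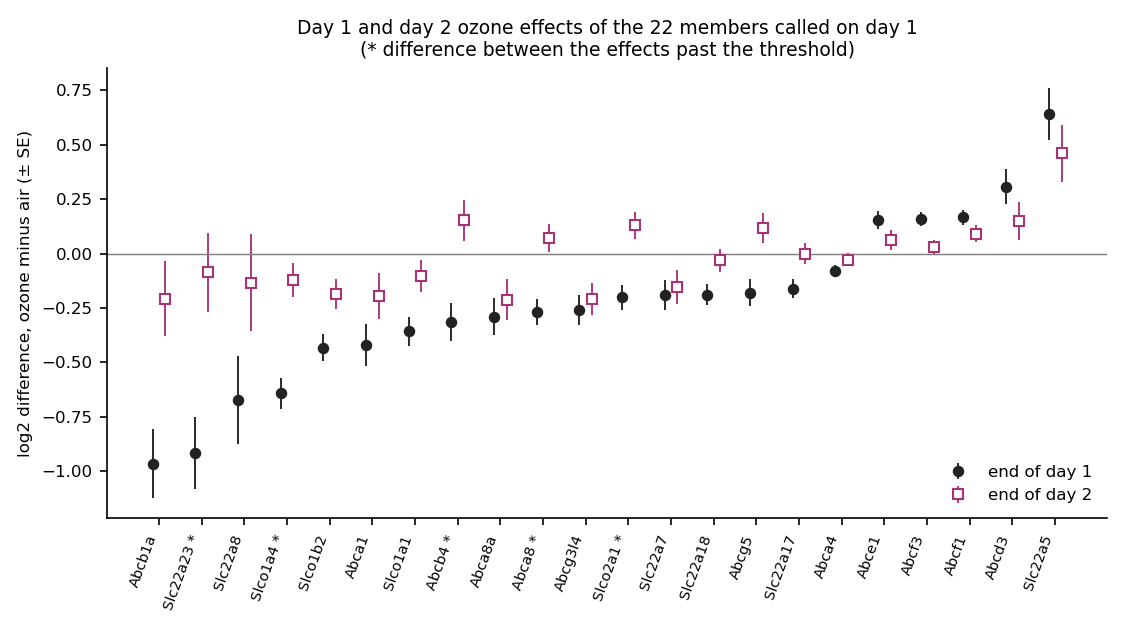
Log2 difference, ozone minus air, with its standard error (vertical axis) for the 22 members past the threshold on day 1 (horizontal axis, in order of the day 1 value); filled circles are the end of day 1 and open squares the end of day 2. The day 1 values were chosen for passing; asterisks mark the 5 members in which the difference between both effects itself passed, where the day 2 square lies above the day 1 circle.

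The difference between the day 2 and the day 1 effect was tested directly. It passed in 5 members (5.09% of all genes), all with a less negative or a positive value on day 2. Among all genes, 3.13% passed in this upward direction and 1.96% in the downward one. For Slc22a23 this difference was 0.83 ± 0.25 (limma, adjusted p = 0.041) and for Slco1a4 0.52 ± 0.11 (adjusted p = 0.0053). It was 0.47 ± 0.13 for Abcb4 (adjusted p = 0.028), 0.34 ± 0.09 for Abca8 (adjusted p = 0.019) and 0.33 ± 0.08 for Slco2a1 (adjusted p = 0.019). Abcb1a, with 0.76 ± 0.23, lay just outside (adjusted p = 0.053), as did Abcg5 with 0.30 ± 0.09 (adjusted p = 0.054). The number was 2 without day 2 ozone 5 (2.54% of all genes), 3 without day 2 air 4 (4.34%) and 8 without day 2 air 1 (7.67%). The call of Slc22a23 was lost without any 1 of 13 single arrays, that of Abcb4 without any 1 of 2 arrays (day 2 air 2 or 4), those of Abca8 and Slco2a1 without day 2 ozone 5, and that of Slco1a4 was kept in all fits that left out 1 array. Without day 2 air 5, day 2 ozone 5 and 18 h air 5 the number was 3 (2.25% of all genes), namely Slco1a4, Abcb4 and Slco2a1, while Slc22a23 had 0.44 ± 0.17 (adjusted p = 0.19) and Abca8 0.28 ± 0.09 (adjusted p = 0.1). Without all 8 arrays nearer another group it was 1 (2.08%), Abcb4, and Slco1a4 had 0.42 ± 0.11 (adjusted p = 0.059).

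The effect at 18 h did not differ from that on day 2 in any member past the threshold (0 of 55, against 0.0086% of all genes). At an unadjusted limma p below 0.05 there were 4 members, against 8.68% of all genes. Without the 3 arrays 7 members passed the threshold (8.58% of all genes), and without all 8 also 7 (5.95%). In air alone, 1 member differed between 18 h after day 2 and the end of day 2 (0.12% of all genes), also without overlap of arrays (1.14% of all genes). This was Slco2b1, whose air arrays read 826, 872, 756, 822 and 751 on day 2 and 676, 651, 645, 697 and 726 at 18 h. All 5 later arrays lay below all 5 earlier ones, a difference of -0.24 ± 0.05 (adjusted p = 0.043). The later ozone arrays, at 667, 683, 676, 717 and 669.5, lay in the range of the later air arrays. The call was lost without any 1 of 7 single arrays and without the 8 arrays nearer another group (-0.22, adjusted p = 0.21), and with the mean of its 3 probe sets the difference was -0.11 (adjusted p = 0.17). Abcg5 and Abcb4 were the next, higher in air at 18 h by 0.30 ± 0.07 and 0.38 ± 0.09, and did not pass (adjusted p = 0.06 and 0.083).

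**Figure D5:**
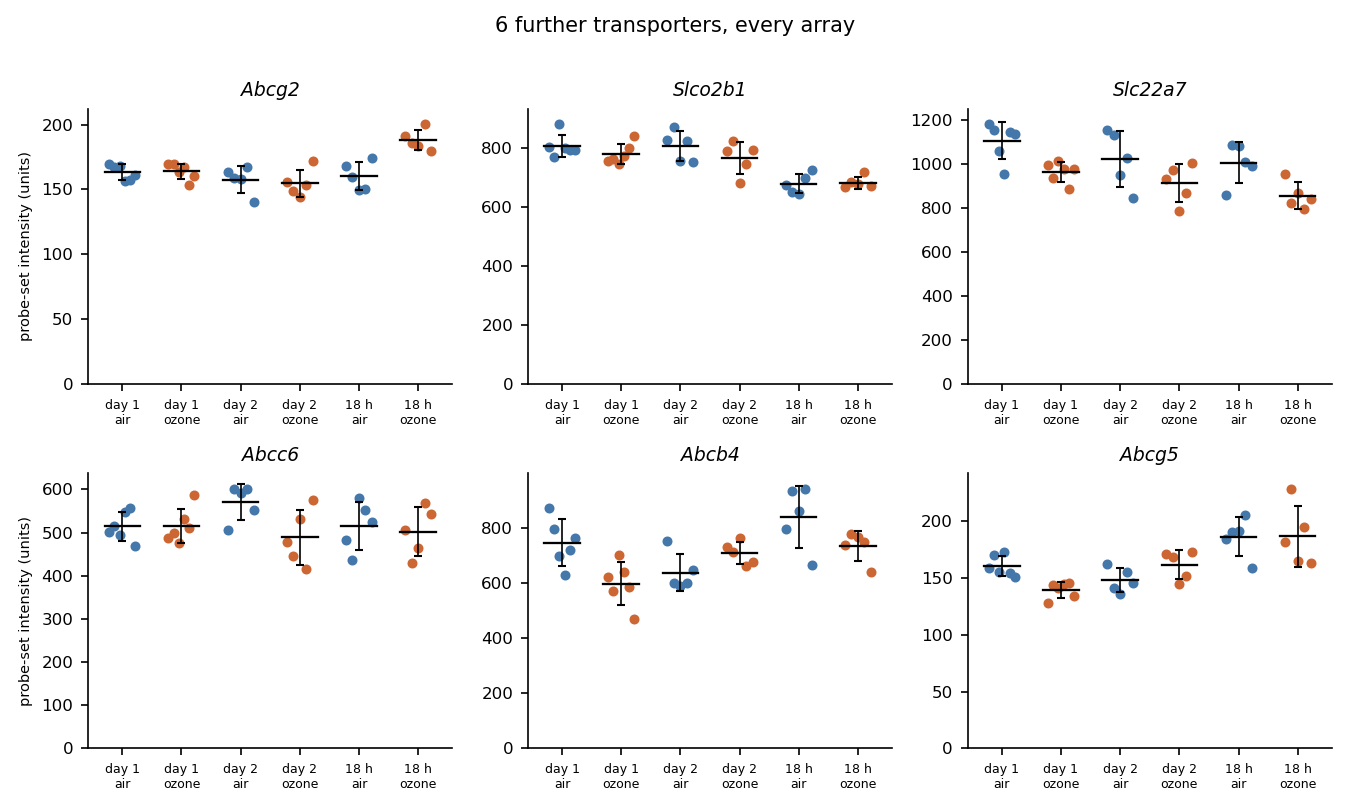
Probe-set intensity in arbitrary units (vertical axis, linear, from 0) on every array of the 6 groups (horizontal axis) for Abcg2, Slco2b1, Slc22a7, Abcc6, Abcb4 and Abcg5, drawn as points with the group mean (line) and SD (bar), blue for air and orange for ozone. The 18 h ozone arrays of Abcg2 lie above the 18 h air arrays, and both 18 h groups of Slco2b1 lie below the day 2 air group.

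A list of other transporters held Abcb11, Abcc2 and genes whose symbols the member rule does not match. Some of the latter, namely Tap1, Tap2 and Cftr, also belong to the ABC family. Of 13 tested on this list, 5 fell and 1 rose on day 1, with a median difference of -0.06. For comparison, 16.4% of all genes fell and 13.1% rose on day 1. Abcc2, the canalicular exporter of conjugated bilirubin, fell by 0.87 on the log2 scale (SE 0.13, limma adjusted p = 1e-05), Slc10a1, the sodium-coupled bile acid importer, by 0.28 (SE 0.05), and Abcb11, the bile salt export pump, differed by -0.10 ± 0.05 and did not pass (adjusted p = 0.17). Of 12 tested regulators known to act on transporter genes, 6 fell and 1 rose on day 1, with a median of -0.15. Those that fell were Nr0b2 (-1.39), Nfe2l2 (-0.53), Nr1i3 (-0.36), Nr1h3 (-0.26), Ppara (-0.18) and Ahr (-0.16); the one that rose was Nr1i2 (0.70), the pregnane X receptor. Hnf4a and Nr1h4, with -0.02 and -0.06, did not pass. At 18 h only Nfe2l2 of these 12 passed, in the other direction (0.52 ± 0.14, adjusted p = 0.0496), and Tap1 fell among the other transporters (-0.40 ± 0.10, adjusted p = 0.040). On day 2 Slc29a1, a nucleoside carrier, fell (-0.26 ± 0.06, adjusted p = 0.045) and no regulator passed. Whether these transcripts bear on those of the transporters was not tested.

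Markers of other liver cells were measured beside these results, since in whole liver fewer cells of a type and less RNA per cell cannot be told apart. On day 1, 2 of 5 endothelial markers fell (Stab2 and Tek), 1 of 5 Kupffer cell markers (Adgre1) and 1 of 6 cholangiocyte markers (Epcam). Also lower were 1 of 7 stellate cell markers (Lrat), 1 of 4 lymphocyte markers (Ptprc) and 1 of 4 markers of pancreas, kidney and adipose tissue (Cela1). None rose, and 0 of 2 neutrophil markers passed. Among all genes 16.4% fell and 13.1% rose on day 1. The summed endothelial signal was 2367 to 3147 units after air and 2222 to 3020.3 after ozone, that of Kupffer cells 2417 to 3002 and 2052 to 3396, and that of cholangiocytes 973 to 1172 and 1000.5 to 1071. Stellate cell markers summed to 2374 to 2897 units after air and 2112 to 2707 after ozone, and lymphocyte markers to 710.1 to 837 and 686 to 777. Only the list of pancreas, kidney and adipose markers did not overlap between groups, with 1766 to 2027 after air and 1549 to 1736 after ozone. On this list Cela1 differed by -0.25 on the log2 scale, while Pnlip (-0.006), Prss1 (0.025) and Adipoq (0.031) did not pass. No marker was at 0, as background signal remains in all values. Hepatocyte markers summed to 61583 to 64182 units after air and 59567 to 64447 after ozone. The part of the other cell types in the day 1 falls was not tested. No marker passed on day 2. At 18 h, when Abcg2 rose, the endothelial marker Stab2 was higher (0.28 ± 0.07, adjusted p = 0.033) and Cela1 lower after ozone (-0.41 ± 0.09, adjusted p = 0.017). The summed Kupffer cell signal was then 2327 to 2744 units after air and 1672 to 2282 after ozone, without overlap, and the endothelial sum 2570.0 to 3081 and 2519 to 3174, with overlap. Their part in the Abcg2 value was not tested.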

How the data were processed

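Total RNA of rat liver was hybridised to 32 single-colour Affymetrix arrays. The authors deposited linear probe-set intensities, which, per the submitters' processing notes, came from PLIER as run by Affymetrix Expression Console. Versions, background correction and scaling between arrays were not given in the sources used here. Array medians lay between 147 and 161 units, and no further scaling was applied. Of 31139 probe sets, 97 controls, 11407 without a gene and 573 with several genes were left out.

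Values were analysed as log2(intensity + 16). Probe sets below the 25th percentile of mean log2 value (7.11) were left out, and the brightest of the others stood for its gene, by the platform's annotation; the Entrez identifiers of all 65 members matched RefSeq's gene table with 0 changed symbols. Groups and replicate numbers came from the sample titles. R 4.3.3 with limma 3.58.1 (lmFit, eBayes with an intensity trend) fitted 1 mean for each of the 6 groups over all 32 arrays, without a block, with 6 contrasts. P-values are two-sided and adjusted over all 11625 genes by the Benjamini-Hochberg method, at a threshold of 0.05. The procedure was tested on simulated data. Arrays "did not overlap" where every value of 1 group lay above every value of the other.

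The members, gene lists and tests were chosen with earlier results of these data known. Genes were named by rule: the 8 largest called members of each ozone comparison, the 3 largest of each other one, and a list of hepatocyte transporters; other members called or counted are named as well. Alternatives were the offset, the filter, quantile normalization, the mean of a gene's probe sets, no intensity trend, the replicate number as a block, only the groups compared, and each array left out in turn. Leaving out 3, 4 or all of the 8 arrays nearer another group, or the 2 of low nonspecific signal, was added after seeing the data. Tables and figures were drawn in Python 3.11.15 with matplotlib 3.10.9, pandas 2.3.3 and numpy 2.4.6.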

Additional observations from a re-analysis of the deposited data

Results flagged for a closer look

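In 162 sets of arrays (27 members in 6 groups), 9 had 1 array farther from the rest than Dixon's 95% limit allows, where chance gives about 1 in 20. Day 2 air 5 stood apart for 3 members: Abca1 at 342 units (the others at 503 to 572), Abca8a at 613 (805 to 890.4) and Slc22a17 at 277 (318 to 326). Day 2 ozone 5 stood apart for Slc22a23 at 802 units (the others at 341 to 424) and for Slc22a5 at 390.3 (530.5 to 552). At 18 h, air 5 was low for Slc22a5 at 329.8 (the others at 468 to 538), ozone 5 was low for Abcb4 at 640.5 (736 to 779), and ozone 4 was low for Abcf1 at 331 (343 to 347). On day 1, air 3 was high for Slco2b1 at 879.8 (the others at 769 to 802).

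By limma's test of the difference itself, the ozone effect differed between day 2 and day 1 in 5 members. On the log2 scale the difference was 0.83 in Slc22a23, 0.52 in Slco1a4, 0.47 in Abcb4, 0.34 in Abca8 and 0.33 in Slco2a1. Each effect was less negative or positive on day 2, a direction in which 3.13% of all genes passed.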

How the results depend on the processing

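On day 1 every alternative kept the count of members past the threshold within 1.5 times of 22 (20 to 22 on leaving out each array in turn). The day 1 values of 27 named members were also followed, apart from the alternatives added later. Of these values 545 stayed on their side of the threshold and 20 lost the call. Values past the threshold in neither fit moved by less than 1 standard error, and their sign was not checked. No member value that was followed reversed direction while past the threshold. For the differences between effects and for air alone, only members called before any alternative was applied were followed. The single call in air between 18 h and day 2 became 0 with no filter, with the mean of the probe sets and with only the groups compared. It was also 0 without the 2 arrays of low nonspecific signal. The count became 2 with a filter at the 50th percentile (0.247% of all genes) or quantile normalization (0.336%). In each of these fits 1 member was higher and 1 lower in air at 18 h. The single call at 18 h became 0 with only the groups compared. Leaving out each array in turn gave 0 to 6 calls on day 2, 0 to 3 at 18 h and 2 to 8 for the day 2 minus day 1 effect. It gave 0 to 1 for the 18 h minus day 2 effect and 0 to 3 in air. The count in air was 2 without day 2 air 1 (0.275% of all genes), with 2 higher at 18 h and 0 lower. Slco2b1 was not among them (limma, adjusted p = 0.052). Without 18 h air 5 the count in air was 3 (0.714%). A further fit left out 3 of the 8 arrays nearer another group (day 2 air 5, day 2 ozone 5 and 18 h air 5). The counts were then 10 on day 2 (13.2% of all genes) and 3 for the day 2 minus day 1 effect (2.25%). They were 7 for the 18 h minus day 2 effect (8.58%) and 4 in air (2.85%). Without these arrays and 18 h air 1 the counts, in the same order, were 10 (13.5%), 3 (2.68%), 7 (9.74%) and 5 (2.63%). At 18 h the count was then 5 (4.95%). Without all 8 the counts were 6 (8.62%), 1 (2.08%), 7 (5.95%) and 2 (1.17%), and 3 at 18 h (2.57%). The cause of these shifts was not tested. The replicate number as a block gave 22, 0 and 1 calls on day 1, on day 2 and at 18 h, 5 and 0 for the differences between effects and 0 in air. Of 21 pairs of same-numbered arrays, 3 correlated above 0.1 (range -0.60 to 0.26). Arrays with unlike numbers were not compared in this way, so these values do not settle whether the numbers pair arrays. Signal over background limits the dim members, since nonspecific probes read up to 92.0 units and Abcc4, for example, read 115 to 139.9 units after air on day 1.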
